A study of Caenorhabditis elegans with 10 samples.

Results

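RNA of whole male Caenorhabditis elegans was compared between 2 windows of young adulthood, 48 to 52 h and 54 to 58 h after hatching. These are the last 2 of the 5 male libraries in a series of 10, which also holds 1 hermaphrodite library at each of the same windows (30 to 34 h, late in the L3 larval stage; early and late L4 at 36 to 40 h and 42 to 46 h; then the young adult windows). All animals carried the him-5 genotype, a mutation that raises the share of males among the progeny, and were kept at 20 °C on nematode growth medium with OP50 bacteria as food. The series addresses how gene expression changes during sexual maturation. Each window is a single library of whole animals, so the comparison has no replicate check, carries no test, and is given below as read counts, levels and sizes of change. In whole-animal RNA, fewer cells of a type and less RNA per cell cannot be told apart.

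A young adult male has just completed its last molt. Molting is served by waves of collagen genes, which build the cuticle, and by precuticle and protease-inhibitor genes that act while the new cuticle forms under the old one, which is then shed. The adult male goes on making sperm throughout this time, unlike the hermaphrodite, which switches from sperm to oocytes at the end of larval life. Its ray and cephalic sensory neurons, used in mate search and mating, are in place, and its intestine digests bacteria but makes little yolk, which is the product of the hermaphrodite intestine. Small heat shock proteins and the inducible Hsp70 chaperones are made when proteins misfold.

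The library of 48 to 52 h held 12364394 gene reads and that of 54 to 58 h held 11902852, within the range of 8189325 to 27907544 over all 10 libraries. The later library stood apart in several totals. Reads not aligned were 25.4% of its reads, against 3.7% at 48 to 52 h and at most 13.5% in any other library. Reads on no annotated feature were 3.98% of its reads, the highest share of the 10, and ambiguous reads were 0.321%, the lowest. Nuclear ribosomal RNA held 8.61% of gene reads at 48 to 52 h and 4.87% at 54 to 58 h, and the annotated genes of the ribosomal repeat moved in opposite directions. Levels of rrn-2.1 were 82236 CPM (CPM being reads of a gene per megaread of its scaled library) and then 21131 CPM, whereas those of rrn-3.1 were 2404 CPM and then 23553 CPM, the highest of the 10 libraries. How these library differences bear on the changes below was not tested.

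**Figure D1:**
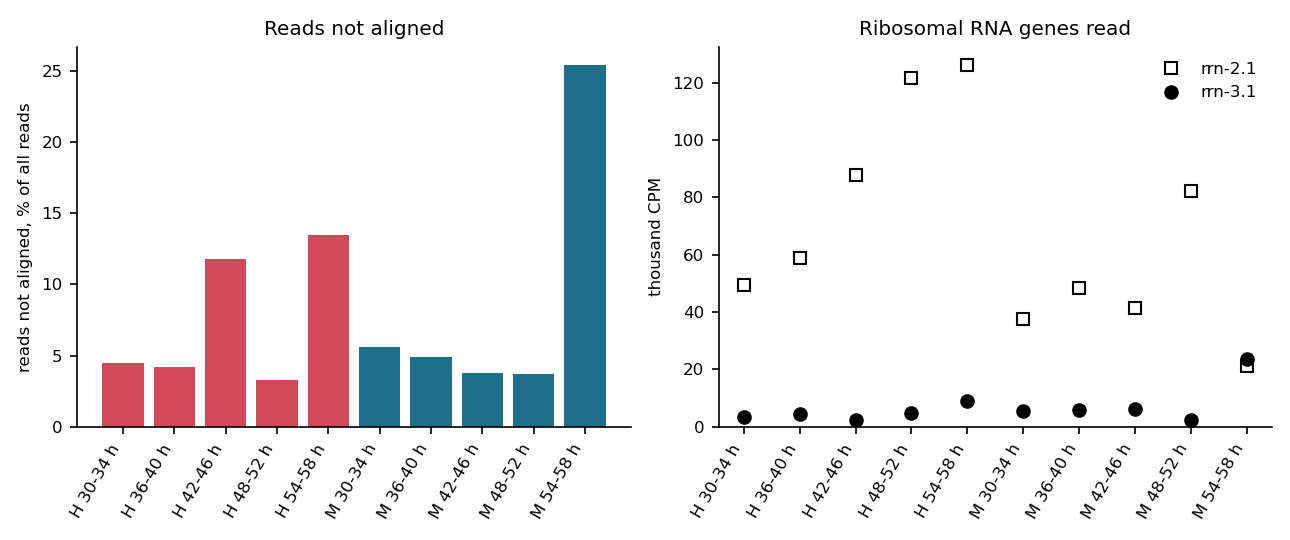
Share of reads not aligned (percent of all reads) and level of the ribosomal RNA genes rrn-2.1 and rrn-3.1 (in steps of 1000 CPM) in each of the 10 libraries. The male library of 54 to 58 h has the highest share not aligned, 25.4%, and its rrn-3.1 level is 23553 CPM against 2404 CPM in the male library before it.

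Sex markers were at levels that fit the male label. The polycystin gene pkd-2, which marks male sensory neurons, was at 47 CPM and then 47.9 CPM, and the 7 sperm markers summed to 975 CPM and then 992 CPM. The 6 markers of male sensory neurons summed to 135 CPM and then 123 CPM, and the 3 markers of male gonad secretion and sperm activation to 105 CPM and then 132 CPM. None of these markers was at 0 in either library.

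Most genes kept similar levels across the step. Of 10912 genes that reached 5 CPM in at least 1 of the 2 libraries, 230 (2.11%) were at least 2-fold higher at 54 to 58 h and 191 (1.75%) were at least 2-fold lower, with 1 CPM added to both levels. "Higher" and "lower" are used in this sense below, log2 values are changes of CPM + 1 from 48 to 52 h to 54 to 58 h, and every count of a gene group is to be read against these shares. The median log2 change was -0.01. Among the 10912 genes, 46 were at least 4-fold higher and 11 at least 4-fold lower. A gene under 5 CPM in 1 library entered only through the other, where it was higher, so counts of weakly expressed genes depend on the limit. When libraries were scaled by their size alone, the split moved from 54.6% to 68.7% higher among the genes past 2-fold (316 higher and 144 lower) and the median to 0.09. In hermaphrodites, over the same step, 107 of 8655 genes (1.24%) were higher and 352 (4.07%) were lower.

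**Figure D2:**
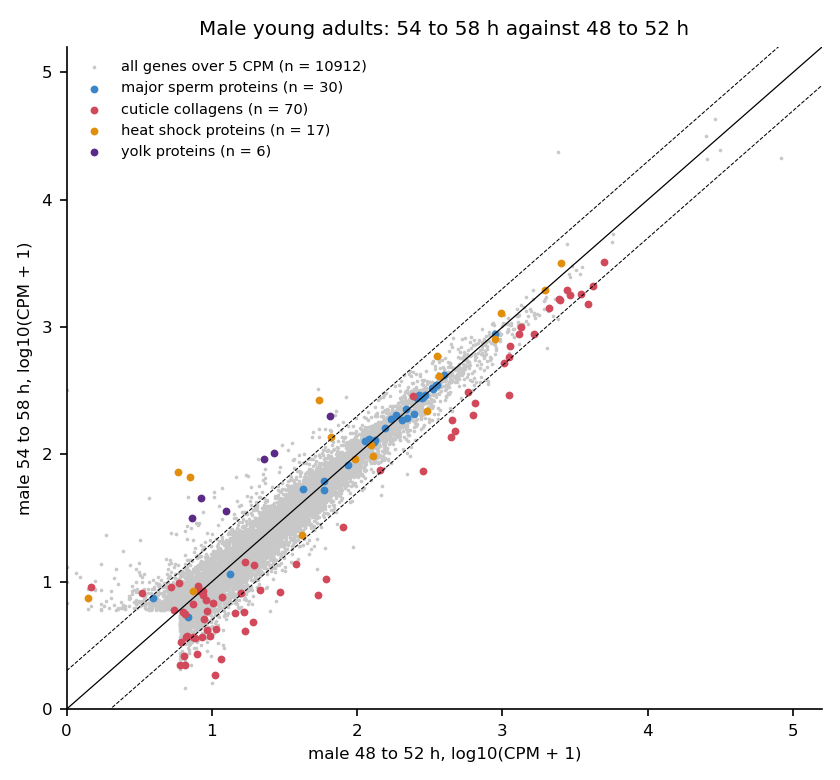
Level of each gene over the limit in the male library of 48 to 52 h (horizontal) and of 54 to 58 h (vertical), as log10 of CPM + 1. Coloured points are 70 collagen, 30 major sperm protein, 17 heat shock and 6 yolk protein genes. Sperm genes sit on the diagonal, collagens mostly below it, and yolk genes above it.

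Collagen genes of the cuticle were, of the 48 gene groups listed, the one with most lower genes. Of 175 collagens listed, 70 were over the level limit, of which 30 were lower and 2 higher, with a median log2 change of -0.93 and 62 below 0. Their summed level was 42590 CPM in the earlier library and 24070 CPM in the later. These genes have similar lengths, and among the 64 with 700 to 1300 bases of exon 45.3% were lower, against 1.47% of 2863 other protein-coding genes of that length. Over the same step in hermaphrodites, 24 of 68 collagens were lower and 2 higher (median -0.63).

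The collagens that were lower had followed different courses in the earlier male libraries. In 12 of the 30 the highest male level was at 42 to 46 h, the end of the last larval stage. col-139 (chromosome V, 4652863 to 4653971 in WBcel235) was at 3.74, 82.3, 2916, 473 and 151 CPM over the 5 male windows, with 5954 and then 1958 reads in the young adult libraries. The level before was 2.98 to 3.3 times the level after (95% interval, counting error only), a log2 change of -1.64. col-80 was at 21, 7.22, 1394, 1104 and 294 CPM, and its 13887 and 3807 reads gave a 3.76-fold lower level (3.63 to 3.9). sqt-3, a collagen needed for body shape, peaked earlier, at 239, 466, 110, 59.6 and 9.48 CPM. col-44 took another course, at 0.695, 2.05, 10.1, 52.8 and 6.94 CPM, so that its 7.61-fold lower level (6.1 to 9.59) followed a peak at 48 to 52 h. It had the largest decrease of any gene over the limit by log2 change (-2.76), and in hermaphrodites its level stayed between 1.15 and 8.56 CPM. Other collagens among the 10 largest decreases were col-157 (9.54 and then 0.848 CPM), col-137 (10.6 and then 1.46 CPM) and col-145 (16 and then 3.08 CPM).

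The 2 listed collagens that were higher belonged to the larval set. dpy-8 was at 510 CPM in late L3 males, 0.477 CPM at 48 to 52 h and 8.1 CPM at the last window, and sqt-1 at 2120 CPM in early L4 males and at 2.31 and then 7.17 CPM as adults. For dpy-8 and sqt-1 the level at 54 to 58 h was far under the peak of the larval libraries. The collagen gene dpy-14, which the list did not hold, was higher too, at 2.09, 1.79, 1.08, 1.43 and 5.55 CPM over the male windows. Its log2 change was 1.43 in males and 3.27 in hermaphrodites. All 3 genes were under 5 CPM at 48 to 52 h and passed the limit only through the later library.

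A few genes that act in molting and in the precuticle were higher as well. Of 22 listed, 10 were over the limit, of which 3 were higher and none lower (median 0.42, with 4 of the 10 below 0). mlt-11, which encodes a protease inhibitor needed for molting, was at 443, 248, 49.3, 0.557 and 7.79 CPM over the 5 male windows. fbn-1, a fibrillin-related matrix gene, was at 557, 95.3, 18.7, 1.75 and 12.5 CPM, and noah-1, which encodes a precuticle protein, at 1267, 555, 91, 6.76 and 27.8 CPM. For each of the 3 the library of 48 to 52 h was the lowest of the 5. There mlt-11 and fbn-1 were under 5 CPM, so these genes passed the limit only through the later library. Hermaphrodites moved alike over the step, with log2 changes of 2.29 for mlt-11, 2.88 for fbn-1 and 2.01 for noah-1, and 5 of 11 genes of the list higher. Of 35 cuticlins listed, 3 were over the limit and none was past 2-fold, the most abundant being cutl-23 at -0.19. None of 8 hedgehog-related genes over the limit, of 59 listed, was past 2-fold, but their median was -0.62 and the most abundant, grd-3, was at 181 and then 108 CPM. Of 10 astacin metalloproteases over the limit, 1 was higher, nas-25 (5 and then 101 reads), and 1 was lower.

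Some heat shock genes were much higher at 54 to 58 h. Of 18 listed, 17 were over the limit, of which 5 were higher and none lower, with a median of 0.19. hsp-16.41, a small heat shock protein gene (chromosome V, 1805178 to 1805875 in WBcel235), was at 63.7, 73.3, 27.6, 4.85 and 71.5 CPM over the 5 male windows. Its 61 and then 927 reads gave a 14.7-fold higher level (11.4 to 19.4). Its close relative and neighbour hsp-16.2 (chromosome V, 1804334 to 1804957) was at 56.2, 66.8, 20.6, 6.04 and 64.9 CPM, 10.7-fold higher (8.49 to 13.8). For both genes 48 to 52 h was the low point, and 54 to 58 h lay inside the range of the larval male libraries. hsp-70, an inducible chaperone, was at 158, 229, 212, 54 and 268 CPM, 4.97-fold higher at the last step (4.57 to 5.4), with the last library the highest male value. hsp-12.6 had 5 and then 83 reads, and hsp-17 was at 65.4 and then 136 CPM. Hsp70 family genes outside the list, F44E5.4 and F44E5.5, had 53 and 59 reads and then 298 and 294. They are near-identical copies, so their separate counts are uncertain.

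The abundant chaperones hsp-90, hsp-1 and hsp-110 were not past 2-fold. hsp-90 was at 2523 and then 3159 CPM (log2 0.32), hsp-1 at 1958 and then 1969 CPM (0.01), and hsp-110 at 353 and then 597 CPM (0.76). None of 14 genes of the unfolded protein response of the endoplasmic reticulum was past 2-fold, the most abundant being hsp-4 (0.41). Among these pek-1 came near the limit, at 64.7 and then 129 CPM (0.99). None of 33 proteasome and ubiquitin genes was past 2-fold (median 0.07).

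In hermaphrodites 3 of these 5 heat shock genes were lower over the same step, and hsp-12.6 (log2 -0.87) and hsp-17 (-0.19) were not past 2-fold. hsp-16.41 was at 172 and then 55.2 CPM, hsp-16.2 at 170 and then 54.2 CPM, and hsp-70 at 458 and then 135 CPM. Of 15 heat shock genes over the limit there, 4 were lower and none higher. Of the 7903 genes over the limit in both sexes, 328 were lower and 47 higher in hermaphrodites. Among the 133 of them higher in males, 7 were lower and 17 higher in hermaphrodites. Among the 111 lower in males, 19 were lower and none higher in hermaphrodites. The 7 included the 3 heat shock genes, F44E5.5 and the arginine kinase gene argk-1, which was at 21.5 and then 68.9 CPM in males and 40 and then 18.9 CPM in hermaphrodites. More genes moved in the same direction in both sexes than in opposite directions. With 1 library of each sex and window the difference between the sexes was not tested.

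**Figure D3:**
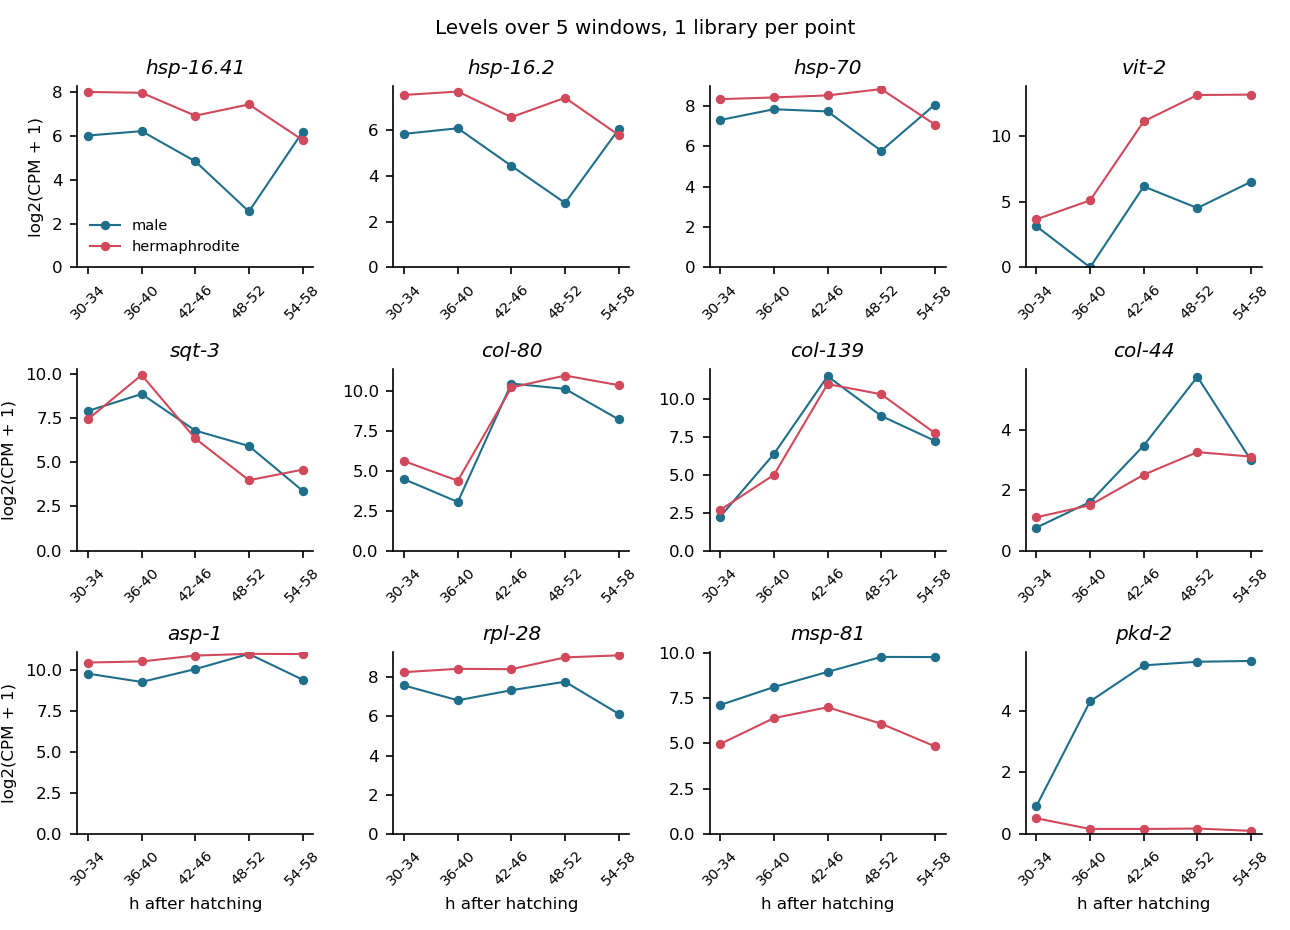
Level of 12 genes, as log2 of CPM + 1, over the 5 windows after hatching in males and hermaphrodites, 1 library per point. In males the 3 heat shock genes shown are lowest at 48 to 52 h and high again at 54 to 58 h, while in hermaphrodites they are lower at 54 to 58 h. The sperm gene msp-81 stays level in young adult males.

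All 6 yolk protein genes were higher, with a median log2 change of 1.96, from low levels. vit-2 was at 7.73, 0, 70.8, 21.9 and 90.8 CPM over the 5 male windows, 4.14-fold higher at the last step (3.62 to 4.73, from 276 and then 1177 reads). vit-1 was at 7.39 and then 44.6 CPM and vit-6 at 64 and then 200 CPM. The 6 genes together came to 137 CPM and then 503 CPM, which is 0.346% and then 1.18% of their sum in the hermaphrodite library of the same window. At 42 to 46 h that share was 4.05%. Also higher were ule-3, at 1.19 and then 11.6 CPM, and ule-4, at 0.716 and then 5.71 CPM, which are named for expression in the hermaphrodite uterus. Both were chosen after their values were seen, and no count of such genes was made.

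Markers of oocytes, which hermaphrodites make and males do not, moved less as a sum. Their 10 genes summed to 276 CPM and then 315 CPM, or 3.95% and then 3.41% of the hermaphrodite sum. Most of it was cpg-1 (91.4 and then 93.2 CPM), rme-2 (63 and then 81.3 CPM) and cpg-2 (51.5 and then 46.5 CPM). These were read in every male library. Among the rest, oma-1 was at 22.6 and then 22.7 CPM, while puf-5 was at 11.2 and then 18.8 CPM. One of the 10 was higher, perm-2 (7.63 and then 17.1 CPM), and none was at 0 in either library. Of 270 genes at least 4-fold higher in hermaphrodites at 42 to 46 h, 118 were over the limit in males. Of these 118, 22 (18.6%) were higher and none was lower, including the 6 yolk genes, ule-3, hsp-16.41 and hsp-16.2. Many of the 22, such as ule-3 (1.19 CPM), cht-3 (1.51 CPM) and hsp-16.41 (4.85 CPM), were under 5 CPM at 48 to 52 h. Such genes passed the limit only through the later library, so 18.6% is not a share of all 270. The median log2 change of the 118 was 0.07. Whether RNA from the other sex had a part in these increases was not tested. Without these 118 genes, 208 genes were higher and 191 lower in males. Of 1517 genes at least 4-fold higher in males at 42 to 46 h, 1396 were over the limit. Of these 1396, 16 (1.15%) were higher and 14 (1%) lower, with a median log2 change of 0.14.

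Sperm genes were at nearly the same level in both male libraries. None of 30 major sperm protein genes over the limit, of 31 listed, was past 2-fold. Their median log2 change was 0.00, and their sum was 6432 CPM and then 6506 CPM. The most abundant, msp-81, was at 884 and then 879 CPM. Since reads that fit several places were given to no gene, the counts of these near-identical genes cover only part of their RNA. Of 49 other sperm genes over the limit, 1 was past 2-fold, ssp-37 (8.75 and then 3.01 CPM), and the median was 0.04. In hermaphrodites, over the same step, 23 of 24 major sperm protein genes were lower with a median of -2.07, and so were 20 of 24 other sperm genes (median -2.19). None of 4 genes of male gonad secretion and sperm activation over the limit was past 2-fold. snf-10, which encodes a transporter of the sperm cell, was at 52.8 and then 67.9 CPM and the secreted protease gene try-5 at 21 and then 34.2 CPM.

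The germ line as a whole gave few changes. None of 36 germline and meiosis genes was past 2-fold (median -0.06), nor any of 25 DNA replication genes (0.06), and 1 of 31 oocyte and eggshell genes over the limit was, namely perm-2. Of 20 histone genes over the limit only his-1 was higher, at 3.02 and then 8.17 CPM, whereas 9 of 31 were higher in hermaphrodites. None of 13 apoptosis and engulfment genes passed 2-fold.

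**Figure D4:**
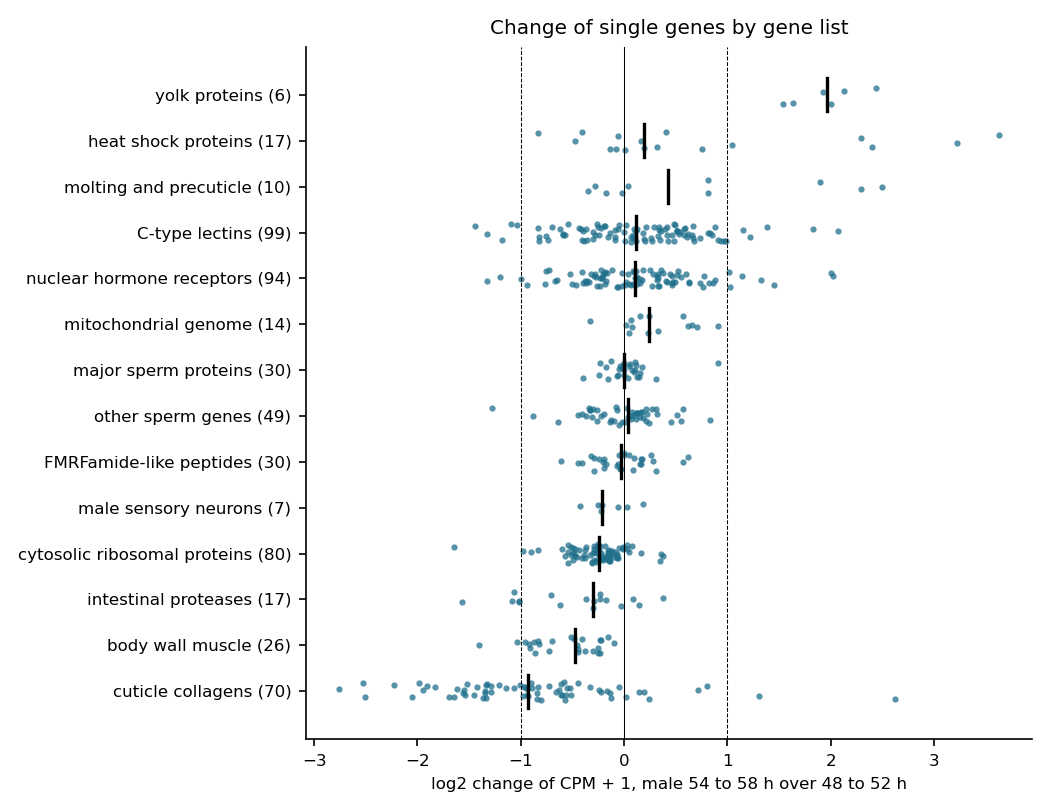
Log2 change from 48 to 52 h to 54 to 58 h in males for each gene over the limit in the gene groups, 1 point per gene, with a bar at each group's median and lines at 2-fold in either direction. Yolk genes lie to the higher side, collagens and muscle genes to the lower side, and sperm groups close to 0.

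Genes of the male nervous system were also at similar levels. None of 7 male sensory neuron genes over the limit was past 2-fold (median -0.21), none of 20 synapse and neurotransmitter genes (0.03), none of 30 FMRFamide-like peptide genes (-0.03) and none of 37 neuropeptide-like protein genes (-0.07). Among 11 regulators of the male tail and of sex over the limit none was past 2-fold (median -0.31), and the sex determination gene tra-1 was at 113 and then 81.4 CPM. Of 10 insulin-like peptide genes over the limit, ins-33 and ins-29 were lower. Of 27 acetylcholine receptor and ligand-gated channel genes, lgc-45 and lgc-4 were lower, and of 7 genes of intraflagellar transport and cilia, the tubulin gene tba-9 was lower.

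Chemoreceptor genes past 2-fold were all higher, from low levels. Of 1340 listed only 41 were over the limit, of which 6 were higher and none lower (median 0.10). Each of the 6 was under 5 CPM at 48 to 52 h and passed the limit only through the later library. The count in this direction thus depends on the limit. Members of the srw family lie side by side on chromosome V, from 7425259 to 7431116. srw-69 had 2 and then 138 reads, a ratio of 66.9 (18.2 to 558), and srw-71 had 9 and then 167 reads. srw-68 had 0 and then 76 reads, at least 24.6-fold higher against a floor of 3 reads in the earlier library, with an exact lower 95% limit of 19.5. At 54 to 58 h they reached 10.6, 12.9 and 5.86 CPM, the highest of the 5 male libraries for each. Members of the srlf genes, 13 over the limit, included none past 2-fold (median 0.38).

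Muscle genes were lower as a group, mostly by less than 2-fold. All 26 listed were over the limit and below 0, with a median of -0.47, and their sum was 25962 CPM and then 18780 CPM. The pharyngeal troponin gene tnt-4 was at 47.3 and then 17.2 CPM and the pharyngeal myosin gene myo-1 at 447 and then 217 CPM, and these 2 alone were past 2-fold. For both, the 48 to 52 h library was the highest of the males, and at 54 to 58 h the levels were near those of the larval libraries. The body wall myosin gene unc-54 was at 5691 and then 4618 CPM (log2 -0.30) and the paramyosin gene unc-15 at 2240 and then 1232 CPM (-0.86). In hermaphrodites 4 of 25 muscle genes were lower, with a median of -0.59.

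Digestive proteases of the intestine were lower in males: 5 of 17 over the limit were past 2-fold and none was higher (median -0.30). In hermaphrodites none of 16 was past 2-fold, a difference that was not tested. The list's male sum was 14616 CPM and then 9837 CPM. asp-1, an aspartyl protease gene of the intestine, was at 881, 619, 1068, 2035 and 684 CPM. Its 25590 and then 8868 reads made it 2.98-fold lower (2.9 to 3.05), while hermaphrodites were at 2039 and then 2022 CPM. Cathepsin B-like genes followed, with cpr-4 at 2429 and then 1162 CPM and cpr-1 at 797 and then 375 CPM. In these 3 genes the 48 to 52 h library was the highest male value, and the last library lay at the level of earlier ones or, for cpr-4, just above them. elt-2, which encodes the GATA factor of the intestine, was at 14.3 and then 6.17 CPM and was chosen after its values were seen.

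Other genes of the intestine and of defence moved in both directions. C-type lectins had 5 higher and 5 lower of 99 over the limit (median 0.12). clec-162 was at 0.0869, 0.149, 0.873, 1.99 and 11.6 CPM over the male windows, and clec-66 at 7.16 and then 28 CPM, while clec-8 (log2 -1.45) and clec-82 (-1.32) were lower. Lysozymes and saposins had 2 higher and 2 lower of 23. The lysozyme gene lys-2 was at 32.3 and then 107 CPM, and the saposin-like gene spp-23 at 146 and then 47.1 CPM. Antimicrobial peptide genes had 2 higher and 3 lower of 22, with the caenacin gene cnc-4 at 41.2, 99.7, 25.8, 7.71 and 34.5 CPM. Of 13 infection response genes 1 was higher, irg-5, at 48.2 and then 137 CPM, its highest male level.

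Genes of metal and oxidative stress had 2 higher and 1 lower of 14. The metallothionein gene mtl-1 was at 1.99 and then 9.02 CPM and mtl-2 at 69.9 and then 204 CPM, while the superoxide dismutase gene sod-3 was at 11.9 and then 4.7 CPM. Few detoxification genes were past 2-fold, with 1 higher (cyp-33C8) and 2 lower of 86 cytochrome P450 and glucuronosyl transferase genes. The lower ones were ugt-30, with 69 and then 6 reads, and cyp-13A2 (log2 -1.42). The change of ugt-30 (log2 -2.15) was among the 10 largest decreases of all genes. None of 17 glutathione S-transferase genes was past 2-fold. The most abundant of the latter, gst-1, came near the limit at 157 and then 303 CPM (log2 0.94).

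Of 94 nuclear hormone receptor genes over the limit, 7 were higher and 3 lower, with a median of 0.10 that became -0.10 with a limit of 20 CPM. nhr-17 was at 26.8, 15.1, 27.5, 16.1 and 67.4 CPM over the male windows and nhr-21 at 19.5, 14, 5.55, 5.72 and 26.4 CPM. For both, the last library was the highest. One of the lower ones was nhr-132 (log2 -1.33). Of 7 heterochronic genes over the limit, which time stage-specific cell fates, 1 was higher, hbl-1, at 1.43 and then 5.4 CPM. Of 34 transthyretin-like genes 1 was higher, ttr-50 (2.32), and of 19 innexin genes 1 was higher, inx-3 (1.01).

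Energy metabolism and translation moved little. None of 22 glycolysis and gluconeogenesis genes (median -0.13), 19 citrate and glyoxylate cycle genes (-0.22) or 25 nuclear respiratory chain genes (-0.22) was past 2-fold, and 24 of the last group were below 0. The 14 genes of the mitochondrial genome over the limit had a median of 0.24, with 13 above 0 and a sum of 61155 CPM and then 82330 CPM. None was past 2-fold, and the most abundant, the ribosomal RNA gene MTCE.33, was at 28852 and then 42966 CPM. Of 80 cytosolic ribosomal protein genes over the limit 72 were below 0 (median -0.24). One was past 2-fold, rpl-28, a large-subunit protein gene, at 218 and then 69.1 CPM. Its log2 change was -1.64 in males and at 517 and then 556 CPM in hermaphrodites. None of 14 translation factor genes passed 2-fold (median -0.13). Of 33 fatty acid metabolism genes 1 was lower, the desaturase gene fat-5 (log2 -1.29), and of 9 lipase genes lipl-2 (1.38) was higher and lips-5 (-1.33) lower.

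Beyond these groups, several of the largest changes fell to genes with no role given here. C06B3.7 was at 4.17, 7.03, 5.91, 2.7 and 44.6 CPM over the male windows, 16.5-fold higher at the last step (11.7 to 24.1). F13A7.11 was at 2.26, 2.38, 8.32, 0.875 and 22.1 CPM, 25.3-fold higher (13.9 to 51.3). kreg-1 was at 5.88 and then 45.1 CPM. In all 3 the last library held the highest male level. Y47G6A.15 had 3 and then 128 reads, a ratio of 41.4 (13.8 to 203), but its highest male level was 17.9 CPM at 42 to 46 h. Among decreases, swt-3, a gene of the SWEET sugar transporter family, was at 59.3, 111, 129, 92.4 and 17.7 CPM, 5.23-fold lower (4.54 to 6.06), with the last library the lowest. Y19D10A.9 had 113 and then 8 reads and rested on a peak at 48 to 52 h, its other male levels being at most 1.6 CPM.

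Set against all 5 male libraries, both young adult libraries contributed to the changes. Of the 230 higher genes, 144 (62.6%) had their highest male level at 54 to 58 h, against 24.7% of all genes over the limit, and 132 (57.4%) had their lowest at 48 to 52 h, against 16.7%. Of these 230, 43 (18.7%) rose at each step from 42 to 46 h on, against 22.1% of all genes. Of the 191 lower genes, 110 (57.6%) had their lowest male level at 54 to 58 h, against 20.5% of all genes. Their highest male level was at 48 to 52 h for 90 (47.1%), against 20.2%. Of these 191, 79 (41.4%) fell at each step from 42 to 46 h on, against 18.5%. Because the rule for a change uses these same 2 libraries, such shares describe the genes and carry no test.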

How the data were processed

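RNA of whole him-5 animals was sequenced from libraries made by Illumina protocols after TRIzol extraction and DNA removal, per the labels' protocols. The authors deposited unnormalized counts of reads for each gene. The submitters' processing notes name CASAVA 1.8 and HTSeq. The sources used here do not give the aligner, the build, the HTSeq version or the strand setting. Reads of genes that overlap on opposite strands may not be told apart. Each table lists 46589 genes and, left out here, 5 totals without a gene. Those totals came to 3.98% on no feature, 0.321% ambiguous, 25.4% not aligned and 17.7% aligned to several places in the male library of 54 to 58 h, and 3.38%, 0.496%, 3.7% and 16.3% in that of 48 to 52 h. Each share is of all reads, those not aligned included, which were 22613397 at 54 to 58 h and 16232074 at 48 to 52 h. Names and positions came from the Ensembl release 115 annotation of WBcel235, which matched 46180 of the names and left 409.

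Counts were scaled with TMM over the 10 libraries (edgeR 4.0.16 in R 4.3.3, from the 15924 genes that reached 1 CPM in 2 or more libraries), with factors of 1.02 and 1.09 for the 2 young adult male libraries. A gene counted as higher or lower when CPM + 1 differed at least 2-fold and either library reached 5 CPM. With 1 library per group no test was run. Intervals are exact binomial 95% intervals of a ratio and, like the floor of 3 reads, cover counting error only. Genes were named as the 10 largest changes each way without ribosomal RNA genes, up to 2 past 2-fold each way per list or the list's most abundant member, and up to 3 with opposite changes in the sexes. Further named genes were chosen after their values were seen, apart from sex markers. The members and the 48 gene lists were chosen with earlier results of these data known. Alternatives were other scalings, level limits, fold limits and added values, omitting ribosomal RNA and mitochondrial genes, and, chosen after seeing the data, leaving out genes higher in hermaphrodites.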

Additional observations from a re-analysis of the deposited data

Results flagged for a closer look

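The log2 change from 48 to 52 h to 54 to 58 h was opposite in the sexes for 3 heat shock genes, the male value exceeding the hermaphrodite value by 5.25 for hsp-16.41, 4.86 for hsp-16.2 and 4.05 for hsp-70. Each rests on 1 library per sex and window, and the difference was not tested. Reads not aligned, which enter no comparison, made up 25.4% of the latest male library and between 3.31% and 13.5% of each of the other 9.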

How the results depend on the processing

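The main counts were 230 genes higher and 191 lower. They were 511 and 392 with a limit of 1 CPM, 96 and 69 with 20 CPM, 787 and 854 at 1.5-fold, 46 and 11 at 4-fold, and 107 and 59 with 5 CPM added. They were 280 and 267 with 0.1 CPM added, 266 and 177 with RLE factors, 242 and 202 with TMM from the 2 male libraries alone, and 316 and 144 with library size only. Without ribosomal RNA and mitochondrial genes they were 329 and 187, of which 228 and 162 were shared with the main genes. The median log2 change of all genes was 0.0285 with RLE factors, 0.0933 with library size only, 0.0098 with 20 CPM and 0.0619 without ribosomal RNA and mitochondrial genes. Of 70 named genes past 2-fold, 66 stayed past it with library size only and 44 with 5 CPM added, and none changed sign in any of the 8 settings tried for single genes. List medians changed sign for 8 of 48 lists with library size only, each at most 0.0952 in size before. With a limit of 1 CPM the histone median changed sign. No paired analysis was possible because each sex and window has 1 library, and no comparison remains without either library. The cause of these shifts was not tested.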

Other observations

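Genes higher at 54 to 58 h in males often lay close together. Of 229 with a position, 47 (20.5%) had another higher gene within 10 kb, against 4.77% of all genes over the limit, and 20 of 188 lower genes (10.6%) had another lower gene, against 3.17%. The srw genes were one such group. kreg-1 and its neighbour F53A9.1, at 19.7 and then 91.6 CPM, were another, as were C06B3.7 and C06B3.6, the latter at 83.4 and then 282 CPM. On chromosome V the neighbours Y47D7A.2, Y47D7A.6, Y47D7A.7 and Y47D7A.11 were lower together. Y47D7A.2 was at 0, 0.0744, 70.6, 51.6 and 11.5 CPM over the male windows and at most 0.135 CPM in any hermaphrodite library, and Y47D7A.6 was at 87.9, 26.5 and 6.09 CPM over the last 3 male windows. Neighbours can be related copies or overlap, so their counts are not independent.

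By chromosome, V held the largest shares of changed genes, with 70 higher (3.67%) and 49 lower (2.57%) of 1905. X-linked genes had a median log2 change of -0.15 over 1173 genes, whereas 9647 autosomal genes had a median of 0.01. On X 34 genes were higher (2.9%) and 30 lower (2.56%), the latter nearly the same share as on V.

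The largest increase of all was at the ribosomal repeat on chromosome I. F31C3.14, a noncoding RNA gene on the minus strand (15067668 to 15068355 in WBcel235) that overlaps rrn-3.1 on the plus strand, had 0 and then 4164 reads, at least 1346-fold higher against a floor of 3 reads, with an exact lower 95% limit of 1094. F31C3.15 had 0 and then 155 reads and F31C3.16 was at least 37.2-fold higher (exact lower limit 29.7), each on the strand opposite another gene of the repeat. rrn-3.1 itself had 30236 and then 305470 reads. Whether the counting used strand is not given in the sources used here.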
